A study of Homo sapiens with 6 samples.

Results

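The genes of glycolysis and of the hypoxia response were examined in KO52, an acute myeloid leukemia (AML) cell line. The set holds 35 genes of the 60612 gene IDs in the count tables. They were taken by name as enzymes of glycolysis, carriers of glucose and lactate, and targets of the hypoxia-inducible factors (HIF). The rule is a list of names with no threshold on a measured value, but it was drawn up with earlier results of these libraries known. Of the 35, 34 passed the filter on low counts and were tested with 15395 genes in all. The remaining gene, EGLN3, which encodes a HIF prolyl hydroxylase, had 0 counts in all 6 libraries, and at this depth 0 counts leave room for a level of up to 0.108 to 0.304 CPM (counts scaled to a library of fixed size).

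All 3 groups were KO52 cells of the genotype labelled CEBPA double mutant, each transduced with a doxycycline-inducible lentiviral pCW57.1 vector. In the dnCEBP group the vector encoded a dominant negative peptide that pairs with several members of the C/EBP family. In the dnFOS group the peptide pairs with several members of the AP-1 family, and in both cases the pairs no longer bind DNA. The third group carried the Empty Vector (EV), which expresses GFP. Per the study's methods, transduced cells were treated with doxycycline and sorted for GFP before RNA was taken, so EV was also exposed to virus, drug and sort. Because each peptide binds to several family members, a difference between groups cannot be assigned to 1 factor. Blocked DNA binding also cannot be told apart from other effects of expressing a peptide. The paper reports slower growth with both peptides and proposes that their expression is toxic. Each group held 2 libraries of total RNA depleted of ribosomal RNA. No source states whether the replicates were separate cultures, so p-values measure the spread between these libraries, which may be technical. The labels used here name no oxygen level. The comparisons of each peptide with EV ask which genes move with that peptide, and the comparison of dnFOS with dnCEBP tests where the peptides differ.

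Glycolysis turns glucose into pyruvate in the cytosol and yields ATP without oxygen. Pyruvate is then either reduced to lactate, which leaves the cell through monocarboxylate carriers, or moved into mitochondria. When oxygen falls, the prolyl hydroxylases stop marking HIF-α subunits for destruction by the VHL ligase. HIF-α then pairs with ARNT on sites with the core ACGTG and raises most glycolytic genes together with genes of angiogenesis, mitophagy and collagen hydroxylation. AML blasts often rely on glycolysis.

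Libraries totalled 9862994 to 27663179 counts, and the dnFOS libraries were the shallowest of the 6. Of the myeloid blast markers, PTPRC, SPI1, CD33, CD34, KIT and MPO were present in every library, at 14.1 to 367 TPM (levels scaled by gene length). The B lymphocyte marker MS4A1 and the endothelial marker CDH5 were at 0 counts throughout, while CD3D (583 to 858 TPM) and EPCAM (60.7 to 89.1 TPM) were expressed in all 6 libraries and CD3E had at most 4 counts. The signal recognition particle RNA RN7SL1 took 7.75% to 7.94% of the counts in EV and dnCEBP and 6.12% and 4.31% in dnFOS, so TPM was computed over protein-coding genes only. Markers moved in both peptide groups. In dnFOS, PTPRC, MPO and CD3D were called lower than in EV, with log2 fold changes of -0.33, -0.56 and -0.28. In dnCEBP, MPO, the granule peroxidase, was called lower at -1.89 ± 0.10 (edgeR adjusted p = 5.03e-13), a larger fall than in dnFOS, and MPO was higher in dnFOS than in dnCEBP by 1.33 ± 0.10 (edgeR adjusted p = 2.1e-10). SPI1 (-0.69), PTPRC (0.30) and CD3D (0.30) were not called in dnCEBP. The part of RN7SL1 and of these markers in the results was not tested.

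The 3 upstream windows below are those of the members with the largest falls in dnFOS against EV, and they were picked by the size of the fall. Each is the 250 bases before the RefSeq start (GRCh38.p14), and each lies within the gene's own span in GENCODE 29, which starts further upstream. Capitals mark ACGTG on either strand, the core of a HIF site, and TGANTCA, the AP-1 consensus. ENO2 is read at chr12:6914330-6914579, plus strand, ADM at chr11:10304823-10305072, plus strand, and ANKRD37 at chr4:185396591-185396840, plus strand.
ENO2: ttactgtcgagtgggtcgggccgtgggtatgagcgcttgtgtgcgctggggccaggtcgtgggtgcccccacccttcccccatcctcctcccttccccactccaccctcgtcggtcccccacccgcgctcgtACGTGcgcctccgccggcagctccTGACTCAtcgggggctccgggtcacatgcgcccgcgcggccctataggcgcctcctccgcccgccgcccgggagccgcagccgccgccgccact
ADM: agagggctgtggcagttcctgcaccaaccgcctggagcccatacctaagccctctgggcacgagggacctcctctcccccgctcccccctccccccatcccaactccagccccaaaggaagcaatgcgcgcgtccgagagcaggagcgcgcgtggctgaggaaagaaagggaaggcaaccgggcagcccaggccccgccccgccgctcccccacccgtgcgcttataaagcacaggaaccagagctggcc
ANKRD37: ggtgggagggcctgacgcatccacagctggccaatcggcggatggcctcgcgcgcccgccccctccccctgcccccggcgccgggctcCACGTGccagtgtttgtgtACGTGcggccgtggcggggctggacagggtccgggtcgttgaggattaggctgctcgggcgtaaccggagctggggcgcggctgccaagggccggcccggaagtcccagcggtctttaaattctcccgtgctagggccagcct

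In the ENO2 window the ACGTG core starts 118 bases and the TGANTCA match 94 bases before the start. The ANKRD37 window holds ACGTG starting 162 and 143 bases before the start. The ADM window holds neither sequence. For 30 members RefSeq gave 59 start windows of 300 bases, and 5 members (BNIP3L, SLC2A3, SLC16A1, NDRG1 and VEGFA) were not matched. Searched on both strands, ACGTG stood in 23 of the 59 windows (39.0%), from 19 genes, against 21.4% of 35116 windows of all genes. The core was in 37.5% of the 40 windows of members that fell in dnFOS and in 42.1% of the 19 windows of the other members. TGANTCA stood in 4 of the 59 (6.78%), from ENO2, HK1 and KDM3A, against 7.71% of all windows. These 3 genes fell in dnFOS, as did 22 of the 30 members with a window. The match was in 10.0% of the 40 windows of members that fell and in 0 of the 19 windows of the others. The C/EBP-like sequence TTNNGNAA stood in 16 (27.1%), against 36.8%. These are matches of letters in short windows, and they do not show binding.

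The set was expressed at a high level. The median tested member had a mean of 114 CPM, and the median of all genes tested was 12.5 CPM. Per length, GAPDH led with 8986 TPM ± 313 (SD, n = 2) in EV, followed by the enolase ENO1 with 6975 ± 183. P4HA1, TPI1 and LDHA lay far below them at 1246 ± 14.6, 1110.5 ± 44.6 and 1097 ± 72.4 TPM, and the EV ranges of TPI1 and LDHA overlapped. PGK1 and PKM followed at 912 ± 2.52 and 698 ± 26.7 TPM in EV. At the other end stood EGLN1 (7.67 ± 0.203 TPM), ALDOC (5.72 ± 0.0883) and PFKM (1.28 ± 0.367). By RNA level, ENO1 stood over ENO2, ALDOA over ALDOC, and PFKP and PFKL over the muscle-type PFKM. In dnCEBP the 35 members summed to 26232 and 26742 TPM, in EV to 25004 and 24289, and in dnFOS to 18439 and 17015. The dnFOS sums lay below all 4 others. GAPDH and ENO1 hold most of each sum, with means of 8986 and 6975 TPM in EV and 5612 and 5018 in dnFOS. The sums therefore follow these genes more than the rest of the set.

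**Figure D1:**
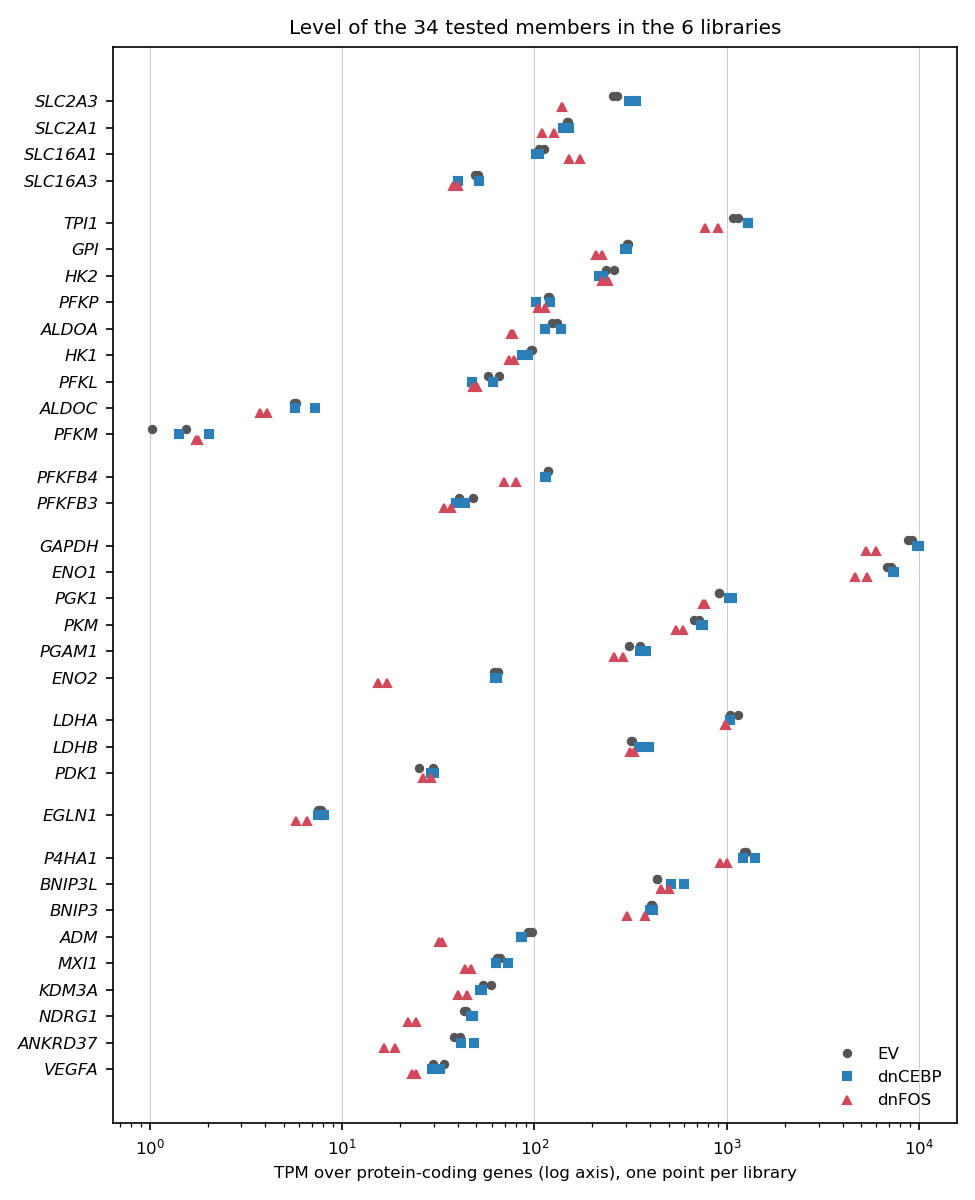
Level of each of the 34 tested members in each library, in TPM over protein-coding genes on a log axis, with EV as grey circles, dnCEBP as blue squares and dnFOS as red triangles. Genes are grouped by role from transporters at the top to HIF targets at the bottom; the dnFOS triangles of ENO2, ADM, ANKRD37, SLC2A3 and NDRG1 stand apart to the left, and those of SLC16A1 to the right.

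With dnFOS, genes of glycolysis and HIF targets fell together. Of the 34 tested members, 25 were lower than in EV, 1 was higher and 8 did not pass the test (edgeR quasi-likelihood test, adjusted p under 0.05 over all genes tested). Over all 15395 genes, 7.76% were called lower and 7.24% higher in this comparison. Since members are abundant and abundant genes are called more often, the same share was taken among genes averaging 10 CPM or more, a cut chosen after the data were seen. There, 11.6% of 8327 genes were called lower, and 25 of 31 members. The median log2 fold change of the members was -0.46 and that of all genes 0.00. Most falls were small: 5 members fell at least 2-fold and 20 by less. In 30 members both dnFOS libraries lay below both EV libraries, as they did in 28.4% of all genes. In bulk RNA, fewer cells that express a gene and less RNA per cell cannot be told apart.

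Scale and base composition bear on these counts. When libraries were scaled by their totals alone, the median of all genes in dnFOS against EV moved to 0.10 and that of the members to -0.36, so the members stayed apart from the rest. In TPM over protein-coding genes the same medians were 0.11 and -0.36, and in TPM over every gene, RN7SL1 included, they were 0.30 and -0.16. Members were richer in G and C than other genes (median 54.1% against 48.4%), and with the trend on GC content and length removed from each library, 23 members were lower, 1 was higher and the median was -0.41.

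The transporters moved in opposite directions. The high-affinity glucose carrier SLC2A3 (GLUT3, chr12:7919230-7936275, minus strand) stood at 306 and 283 CPM in EV, 347 and 385 with dnCEBP and 146 and 144 with dnFOS. The dnFOS libraries held about 0.491 of the EV level, and no groups overlapped. Its log2 fold change in dnFOS was -1.02 ± 0.09 (SE, edgeR adjusted p = 1.17e-09). The near-identical SLC2A14 had at most 0.587 CPM in any library. The basal glucose carrier SLC2A1 (GLUT1) had 131 and 125 CPM in EV, 130.0 and 124 with dnCEBP and 101 and 86.9 with dnFOS, a smaller fall of 0.44 on the log2 scale (edgeR adjusted p = 0.00118).

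The lactate carriers diverged. SLC16A3 (MCT4), which exports lactate from glycolytic cells, was at 84.6 and 79.2 CPM in EV, 83.8 and 67.0 with dnCEBP and 61.1 and 56.8 with dnFOS (log2 fold change -0.47 ± 0.10, edgeR adjusted p = 0.00187). That call was lost when the GC and length trend was removed. SLC16A1 (MCT1, chr1:112911847-112957013, minus strand), which carries lactate and pyruvate both ways, was the only member called higher, at 111 and 100.1 CPM in EV, 98.4 and 103 with dnCEBP and 137 and 154 with dnFOS. Both dnFOS libraries lay above the other 4, and the log2 fold change was 0.46 ± 0.09 (edgeR adjusted p = 0.00061). It was called higher under every alternative and with each library left out.

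Of the 9 enzymes of upper glycolysis, from glucose to the triose phosphates, 5 fell in dnFOS and 4 were not called. ALDOA, the main aldolase, changed most, from 89.5 and 92.1 CPM in EV and 97.4 and 82.4 in dnCEBP to 50.5 and 50.7 in dnFOS (log2 fold change -0.84 ± 0.10, edgeR adjusted p = 3.53e-07). Reads could be shared here, since 42.3% of the ALDOA exon length lies under the same-strand model AC093512.2. The phosphoglucose isomerase GPI was level between EV (599 and 585 CPM) and dnCEBP (589.7 and 584) and stood at 408 and 375 in dnFOS (-0.60 ± 0.08). Triose phosphate isomerase, TPI1, had 569.9 and 519.8 CPM in EV, 629.6 and 641 with dnCEBP and 416 and 349.8 with dnFOS (-0.51 ± 0.09).

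At the first step HK1 was called lower and HK2 was not, though for each gene both dnFOS libraries lay below both EV libraries. Whether the hexokinases differ from each other in their fall was not tested. HK1, the housekeeping form, was at 113 and 107 CPM in EV, 106 and 100.3 with dnCEBP and 78.9 and 82.4 with dnFOS (log2 fold change -0.45 ± 0.09, edgeR adjusted p = 0.000562). HK2, the inducible form and the more abundant of the pair, had 263 and 281 CPM in EV, 249 and 244 with dnCEBP and 231 and 245 with dnFOS. The difference of HK2 from EV was -0.19 (95% interval -0.37 to -0.02, edgeR adjusted p = 0.119). Of the phosphofructokinases, which commit sugar to glycolysis, PFKL fell from 109 and 91.5 CPM in EV to 76.4 and 71.6 in dnFOS (-0.43 ± 0.10), with 98.4 and 78.1 in dnCEBP. This call was lost without EV replicate 1, without dnFOS replicate 2 and with the GC and length trend removed, where the adjusted p rose to 0.142 (edgeR). PFKP, PFKM and ALDOC were not called (log2 fold changes of -0.23, 0.36 and -0.65), and ALDOC and PFKM rested on 19 to 82 counts a library.

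Bifunctional enzymes set the level of fructose 2,6-bisphosphate, the activator of phosphofructokinase. Those in the set, PFKFB3 and PFKFB4, both fell in dnFOS. Their paralogs PFKFB1 and PFKFB2 are outside the set. PFKFB2 did not fall: both dnFOS libraries lay above both EV libraries, and it was not called. PFKFB1 did not pass the filter on low counts. PFKFB4 had 133 and 129 CPM in EV, 127 and 129.8 with dnCEBP and 83.7 and 71.5 with dnFOS (log2 fold change -0.75 ± 0.09, edgeR adjusted p = 8.71e-07). PFKFB3 had 46.1 and 52.1 CPM in EV, 48.7 and 44.6 with dnCEBP and 35.4 and 37.8 with dnFOS (-0.43 ± 0.11, adjusted p = 0.00833), and its call was lost without EV replicate 2 and with the GC and length trend removed.

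All 6 enzymes of lower glycolysis, from glyceraldehyde phosphate to pyruvate, fell in dnFOS. ENO2 (chr12:6913745-6923698, plus strand), the neuron-type enolase, changed most of all members. Its level was 50.9 and 46.9 CPM in EV, 48.5 and 50.9 with dnCEBP and 11.3 and 12.3 with dnFOS. The 4 EV and dnCEBP libraries overlapped, and both dnFOS libraries stood far below them. The log2 fold change was -2.06 ± 0.12, that is 4.17-fold lower (edgeR adjusted p = 1.8e-12). ENO1, the main enolase, had 6928 and 6445 CPM in EV, 7039.5 and 7260.1 with dnCEBP and 4833 and 4111 with dnFOS (-0.58 ± 0.08).

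GAPDH, often taken as a reference gene, stood at 5073 and 4662 CPM in EV, 5289 and 5489 with dnCEBP and 3017 and 2634 with dnFOS. This is 1.72-fold lower in dnFOS than in EV (log2 fold change -0.78 ± 0.08, edgeR adjusted p = 1.46e-07). Its 62 pseudogenes together held at most 0.078% of the summed counts of pseudogenes and parent gene in any library. Whether reads that match both were dropped or shared cannot be told from the counts. PGK1, which makes ATP, had 927 and 898 CPM in EV, 1032 and 1092 with dnCEBP and 725 and 695 with dnFOS (-0.36 ± 0.08). The mutase PGAM1 had 169 and 143 CPM in EV, 177 and 168 with dnCEBP and 126 and 112 with dnFOS (-0.39 ± 0.09). Pyruvate kinase, PKM, had 1135 and 1038 CPM in EV, 1178 and 1159.6 with dnCEBP and 864 and 779.7 with dnFOS (-0.40 ± 0.09). The edgeR adjusted p of these 3 was 0.00341, 0.00459 and 0.00187, and each call was lost when EV replicate 1 was left out, that of PGAM1 also without dnFOS replicate 2.

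The enzymes that decide the fate of pyruvate moved least before any GC correction, with a median log2 fold change of -0.09. With the GC and length trend removed the median was -0.23, near that of the transporters (-0.24), and 2 of the 3 were called lower. LDHA, which makes lactate, stood at 1200.3 and 1272 CPM in EV, 1178 and 1198 with dnCEBP and 1034 and 1028 with dnFOS. Its fall of 0.26 on the log2 scale was the smallest that passed the test (edgeR adjusted p = 0.0311). It did not pass with library totals, nor when any 1 of the 4 EV and dnFOS libraries was left out. With the GC and length trend removed LDHA was called lower at -0.34 (edgeR adjusted p = 0.00187). LDHB, whose form favours lactate oxidation, had 178 and 168 CPM in EV, 189.6 and 218 with dnCEBP and 159.9 and 165 with dnFOS, and was not called against EV (adjusted p = 0.531). A same-strand model, AC010197.2, covers 33.4% of the LDHB exon length. PDK1, the kinase that holds pyruvate dehydrogenase inactive and a classic HIF target, overlapped between dnFOS (66.4 and 72.7 CPM) and EV (69.3 and 78.8), with a difference of -0.09 (95% interval -0.28 to 0.10). With the GC and length trend removed, PDK1 was called lower in dnFOS, at -0.23 against EV (edgeR adjusted p = 0.0483) and -0.32 against dnCEBP (adjusted p = 0.00351).

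Of the 9 other HIF targets, 8 fell in dnFOS. ADM (chr11:10304680-10307397, plus strand), the vasodilator peptide adrenomedullin, was at 49.0 and 44.8 CPM in EV, 42.5 and 43.0 with dnCEBP and 15.2 and 14.5 with dnFOS, 3.15-fold lower than EV (log2 fold change -1.65 ± 0.12, edgeR adjusted p = 9.47e-11). ANKRD37 (chr4:185396021-185400628, plus strand), an ankyrin repeat gene induced by HIF, had 19.5 and 17.5 CPM in EV, 22.8 and 19.9 with dnCEBP and 7.29 and 8.12 with dnFOS (-1.27 ± 0.16, adjusted p = 2.65e-06). The lowest count behind it was 84, and 35.2% of its exon length is antisense to UFSP2, whose reads cannot be told apart unless strand was used in counting. NDRG1, a stress-responsive gene of the NDRG family, had 78.5 and 76.9 CPM in EV, 85.4 and 85.1 with dnCEBP and 36.9 and 39.8 with dnFOS (-1.02 ± 0.09, adjusted p = 5.9e-09). In each of these genes both dnFOS libraries lay below every other library.

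The other HIF targets fell by less. MXI1, a MYC antagonist, had 56.6 and 52.8 CPM in EV, 53.0 and 62.4 with dnCEBP and 36.9 and 33.5 with dnFOS (log2 fold change -0.63 ± 0.11). VEGFA, the angiogenic growth factor, had 79.4 and 87.5 CPM in EV, 85.1 and 78.2 with dnCEBP and 56.5 and 58.8 with dnFOS (-0.53 ± 0.09). KDM3A, a histone H3 demethylase, had 135 and 142 CPM in EV, 128 and 133 with dnCEBP and 102 and 90.2 with dnFOS (-0.52 ± 0.09). These 3 had edgeR adjusted p-values of 0.000197, 0.000197 and 0.000131. The collagen prolyl hydroxylase subunit P4HA1, the most abundant of the other HIF targets, had 706 and 693 CPM in EV, 684 and 800.3 with dnCEBP and 483 and 518 with dnFOS (-0.48 ± 0.09, edgeR adjusted p = 0.000363).

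The mitophagy receptors BNIP3 and BNIP3L did not move alike. BNIP3 had 403 and 384 CPM in EV, 385 and 409 with dnCEBP and 276 and 335 with dnFOS (log2 fold change -0.37 ± 0.09, edgeR adjusted p = 0.00609), and its call was lost without dnFOS replicate 1 and without EV replicate 1. BNIP3L overlapped between dnFOS (333 and 363 CPM) and EV (346 and 335), with a difference of 0.03 (95% interval -0.15 to 0.21). EGLN1, the main HIF prolyl hydroxylase, stood at 8.14 and 7.06 CPM in dnFOS and 10.5 and 9.75 in EV, and did not pass the test (-0.40, adjusted p = 0.147).

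Of the 25 falls, 21 were called under all 8 alternative settings and 18 with each library left out. The median fall of glycolysis and transport members (-0.43, 17 of 24 lower) and of HIF target members (-0.53, 8 of 10 lower) lay close to each other before any GC correction. With the GC and length trend removed the medians stood further apart, at -0.32 (15 of 24 lower) and -0.63 (8 of 10 lower). The median GC content was 55.8% in the glycolysis and transport members and 48.6% in the HIF target members.

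**Figure D2:**
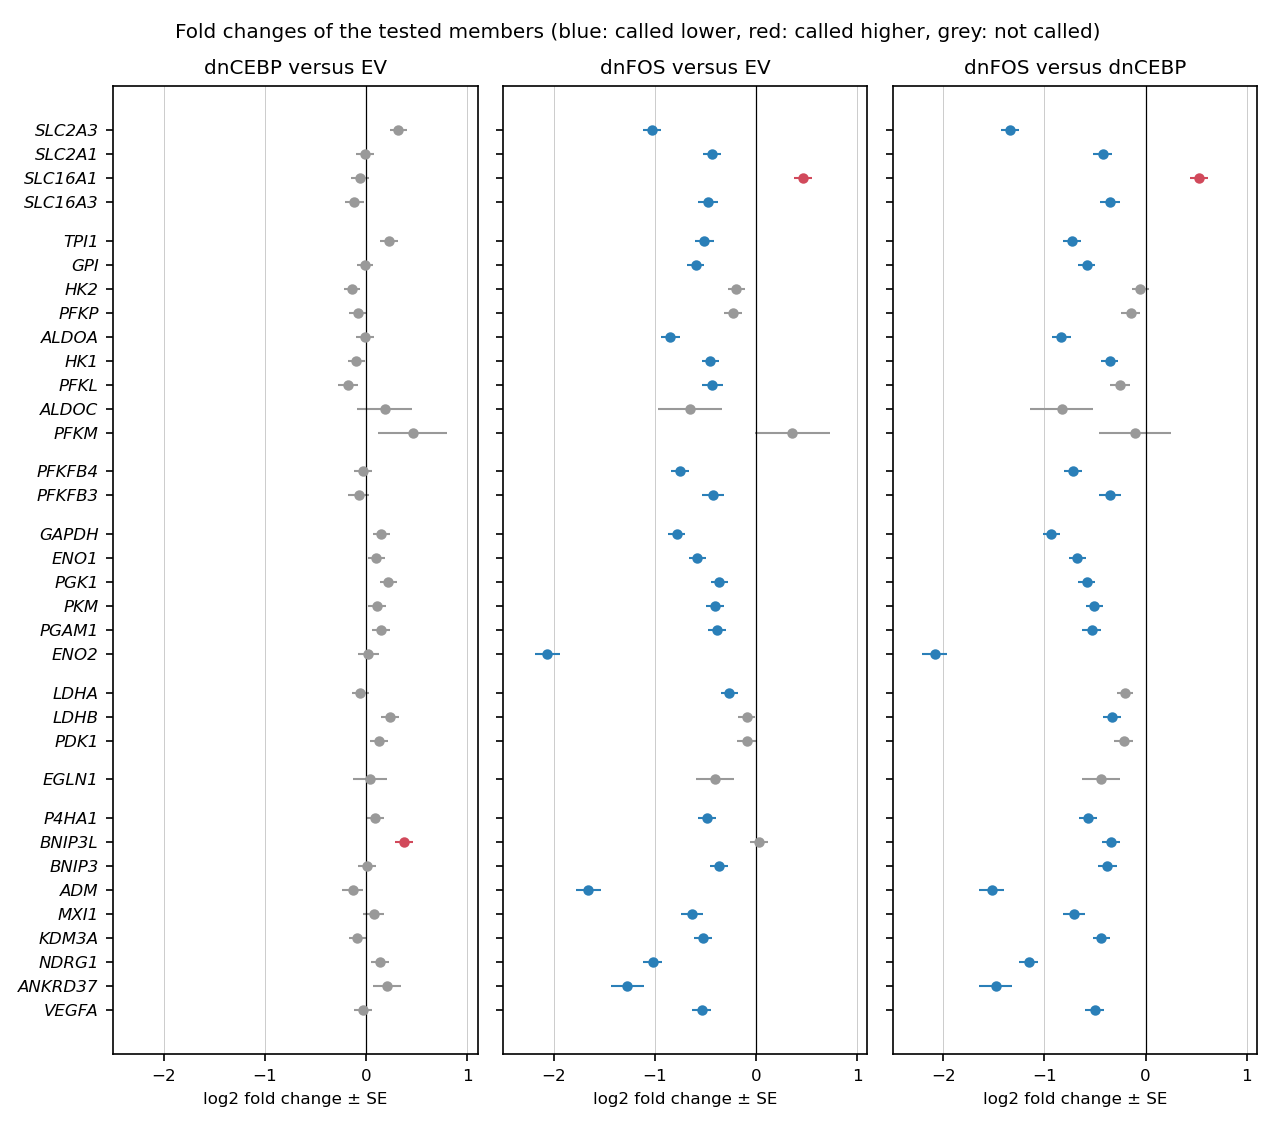
Log2 fold change of each tested member with its standard error, for dnCEBP against EV (left), dnFOS against EV (middle) and dnFOS against dnCEBP (right), with members called lower in blue, called higher in red and not called in grey. In the middle and right panels 25 members are blue and SLC16A1 alone is red, while in the left panel BNIP3L alone is coloured.

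In dnCEBP these genes lay near their EV level, while the marker MPO fell as given above. Of the 34 members, 1 was called higher, 0 lower and 33 were not called, where 0.624% of all genes were called higher and 0.448% lower. The median log2 fold change of the members was 0.03, with 19 above 0 and 15 below. All 6 lower glycolysis enzymes were above 0, with a median of 0.13 (0.17 with the GC and length trend removed), and 0 were called. In 4 of these 6 both dnCEBP libraries lay above both EV libraries, as they did in 21.9% of all genes. For 32 of the 34 the 95% interval lay within a 1.5-fold change in either direction, so larger changes of those members lie outside the intervals. Across all genes, edgeR called 165 at the adjusted threshold, and 1835 (11.9%) had an unadjusted p under 0.05.

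The member called in dnCEBP was BNIP3L, with 402 and 478 CPM against 346 and 335 in EV. Both dnCEBP libraries were above both EV libraries, and the log2 fold change was 0.37 ± 0.09 (edgeR adjusted p = 0.0306, 0.00392 to 0.0517 over the alternatives). It was not called with library totals, nor without dnCEBP replicate 2, EV replicate 1 or EV replicate 2. SLC2A3 was near the threshold at 0.31 ± 0.09 (adjusted p = 0.0671) and passed it under 5 of 8 alternatives. At an unadjusted p under 0.05, 5 members were higher and 0 lower, and DESeq2 and limma-voom each called 2 higher and 0 lower. ENO2, the member that changed most in dnFOS, differed by 0.02 in dnCEBP (95% interval -0.20 to 0.24), and ADM by -0.14 (-0.36 to 0.09).

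The direct comparison of the peptides tests whether their effects differ. Its fold changes come from the dnFOS and dnCEBP libraries, and the EV libraries enter the estimate of the spread: without EV replicate 1 or 2, 2262 and 2164 genes were called in place of 2259. Against dnCEBP, 25 of the 34 members were lower in dnFOS, 1 was higher and 8 were not called, where 7.84% of all genes were called lower and 6.83% higher. The median was -0.51 for the members and 0.02 for all genes. ENO2 (log2 fold change -2.08 ± 0.12, edgeR adjusted p = 1.1e-12), ADM (-1.52 ± 0.12), ANKRD37 (-1.48 ± 0.16), SLC2A3 (-1.34 ± 0.09) and NDRG1 (-1.15 ± 0.09) differed by more than 2-fold. All 6 lower glycolysis enzymes and all 9 other HIF targets were lower in dnFOS than in dnCEBP, with GAPDH at -0.93 ± 0.08 (adjusted p = 2.97e-09). SLC16A1 was higher by 0.52 ± 0.09 (adjusted p = 0.000104).

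For some members this contrast gave another call than the one with EV. LDHB (-0.33 ± 0.09, edgeR adjusted p = 0.00974) and BNIP3L (-0.34 ± 0.09, adjusted p = 0.00958) were lower in dnFOS than in dnCEBP but not than in EV. Both had their highest values in dnCEBP, and both calls were lost with library totals and without dnCEBP replicate 2, that of BNIP3L also without dnFOS replicate 1. PFKL and LDHA were not called against dnCEBP (edgeR adjusted p = 0.103 and 0.0997), though they passed under 1 and 3 of 8 alternatives. HK2 differed between the peptides by -0.05, with a 95% interval of -0.22 to 0.12.

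The share of 1 paralog in its pair is free of the scaling of a library, and these shares are given as a description. ENO2 made up 0.898% and 0.889% of enolase TPM (ENO1 plus ENO2) in EV, 0.841% and 0.857% with dnCEBP and 0.286% and 0.367% with dnFOS. ENO2 is thus a minor enolase in these cells at the RNA level, and its share in both dnFOS libraries was far below that in the other groups. SLC2A3 held 64.2% and 63.5% of the GLUT1 plus GLUT3 sum in EV, 67.2% and 70.5% with dnCEBP and 52.4% and 55.9% with dnFOS. SLC16A3 held 31.1% and 31.9% of the MCT1 plus MCT4 sum in EV, 33.5% and 27.7% with dnCEBP and 20.9% and 17.9% with dnFOS.

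The shares of the other pairs moved by a few percentage points. HK2 held 70.7% and 73.1% of the HK1 plus HK2 sum in EV and 75.2% and 75.5% in dnFOS. For LDHB in the lactate dehydrogenase pair the shares were 23.6% and 21.6% in EV, 25.1% and 27.5% with dnCEBP and 24.4% and 25.0% with dnFOS. BNIP3 held 48.5% and 48.1% of its pair in EV, 43.6% and 40.9% with dnCEBP and 40.1% and 42.8% with dnFOS.

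**Figure D3:**
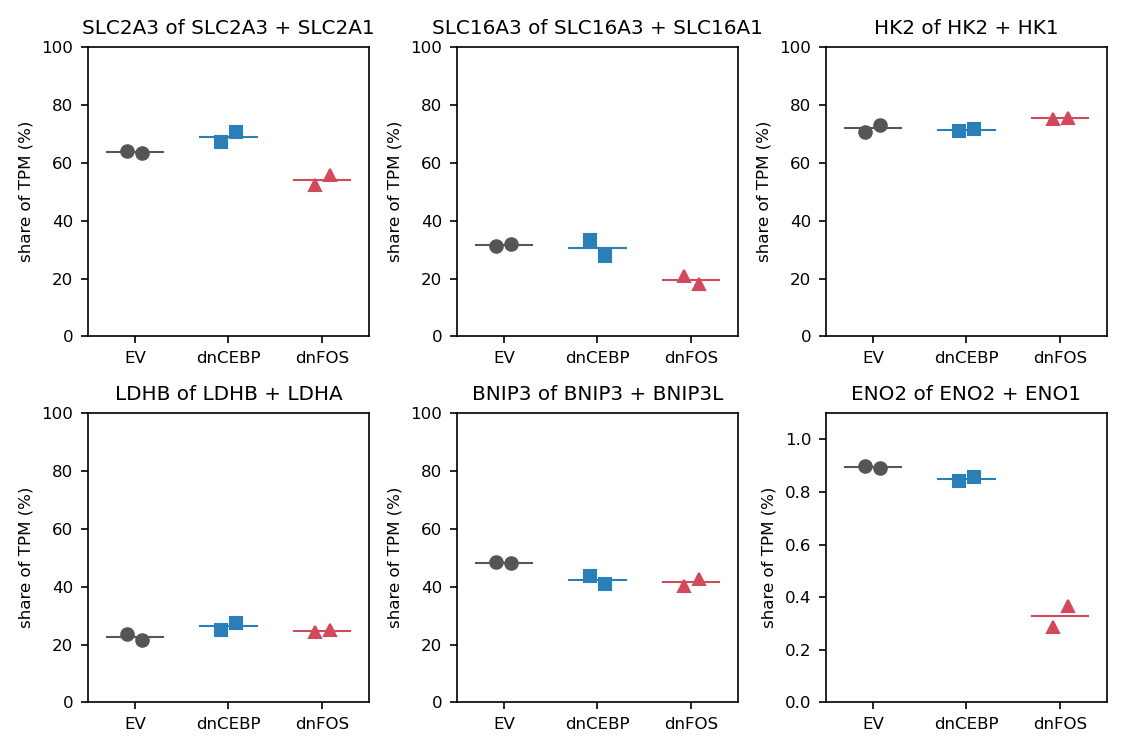
Share of 1 paralog in the summed TPM of its pair, in percent, for each library (points) with the group mean (line), in EV, dnCEBP and dnFOS; the axis of the ENO2 panel ends near 1% and the others at 100%. The dnFOS points lie below those of both other groups for ENO2, SLC2A3 and SLC16A3 and above them for HK2.

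The genes around the set were read from lists of the same pathways. Over all genes tested, 7.24% were called higher and 7.76% lower in dnFOS against EV. Among genes averaging 10 CPM or more, the shares were 11% and 11.6%. No list was tested as a set. Of the HIF subunits and their regulators, 14 were tested, 1 was higher and 2 were lower in dnFOS. HIF1A, the oxygen-regulated subunit, had 77.8 and 64.7 CPM in EV and 65.2 and 71.4 in dnFOS (log2 fold change -0.06, edgeR adjusted p = 0.727). With the GC and length trend removed HIF1A was called lower at -0.30 (adjusted p = 0.0157). Its partner ARNT had 69.2 and 68.9 CPM in EV and 61.9 and 55.0 in dnFOS (-0.24, adjusted p = 0.0856). VHL, which marks HIF-α for degradation, rose from 47.0 and 50.6 CPM in EV to 73.8 and 82.2 in dnFOS (0.67 ± 0.10, edgeR adjusted p = 1.54e-05) and was at 55.7 and 56.6 in dnCEBP. CITED2, which competes with HIF-α for its coactivators, fell by 0.47 on the log2 scale (adjusted p = 0.00406), and ELOB, a subunit of the VHL ligase, fell by 0.35 (adjusted p = 0.0292), a call lost with the GC and length trend removed.

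Of 20 further HIF targets tested, 6 were lower in dnFOS, with a median of -0.45, where 7.76% of all genes were called lower. Of these 6, BHLHE40, a circadian repressor, changed most, from 115 and 118 CPM in EV and 141 and 135 in dnCEBP to 57.9 and 56.9 in dnFOS (log2 fold change -1.02 ± 0.09, edgeR adjusted p = 1.17e-09). DDIT4, an inhibitor of mTORC1, had 96.1 and 103 CPM in EV, 83.8 and 84.0 with dnCEBP and 48.6 and 51.5 with dnFOS (-0.99 ± 0.09). The histone demethylase KDM4B fell by 0.56 on the log2 scale (adjusted p = 0.000586).

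Other branches of glucose use held genes that rose and genes that fell, and their medians lay nearer to 0 than that of the members. Calls were few in each of these lists, where 7.24% of all genes were called higher and 7.76% lower. Of 10 further glycolysis genes tested, 2 were lower, HK3 and PGM1, and the median was -0.01. The myeloid hexokinase HK3 was near the floor, counting 22 and 11 in the EV libraries and 2 and 0 in those of dnFOS, at least 2.94-fold lower against a floor of 3 counts a library, and called under 4 of 8 alternatives. Of 7 further glucose and lactate transporters, the fructose carrier SLC2A5 alone was lower (log2 fold change -0.92 ± 0.13, edgeR adjusted p = 8.98e-06), and the median was 0.18. Of 11 genes for pyruvate entry into mitochondria, 2 were higher, DLAT of pyruvate dehydrogenase (0.41 ± 0.11, adjusted p = 0.0112) and the kinase PDK3 (0.28 ± 0.10, adjusted p = 0.0472), the latter called under 2 of 8 alternatives, and the median was 0.11. Of 8 pentose phosphate genes, RPE was higher (0.42 ± 0.11), TKT (-0.43 ± 0.09) and PGD (-0.39 ± 0.08) were lower, and the median was -0.06. In dnCEBP, edgeR called 0 of the 70 genes of these 6 lists against EV, where 4 were higher and 8 lower at an unadjusted p under 0.05, DESeq2 called 0 and limma-voom 0. With the GC and length trend removed, BHLHE40 was called higher in dnCEBP (0.28, edgeR adjusted p = 0.0251). With the replicate block, BHLHE40 and the mitochondrial HIF target FAM162A were called higher (adjusted p = 0.0408 and 0.0236).

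**Figure D4:**
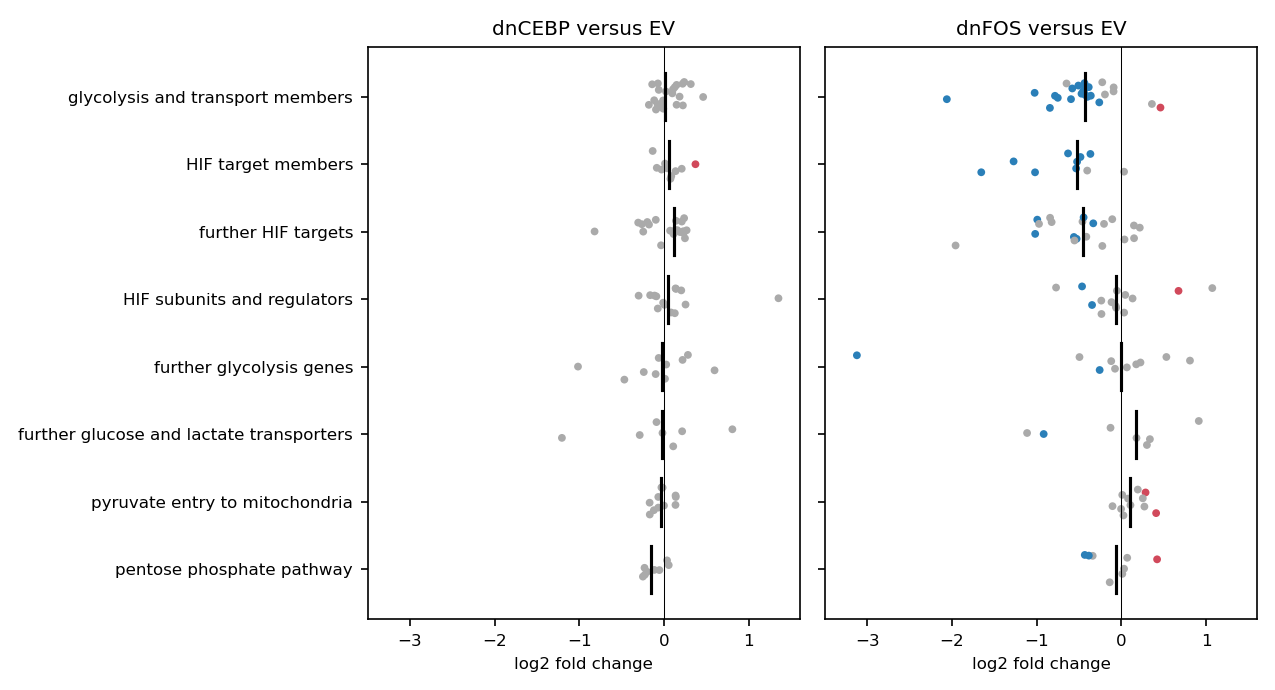
Log2 fold change of each tested gene by pathway list (points) with the list median (black bar), for dnCEBP against EV (left) and dnFOS against EV (right), with genes called lower in blue, called higher in red and not called in grey. In dnFOS the medians of both member lists and of the further HIF targets lie between -0.43 and -0.53, and those of the other 5 lists between -0.07 and 0.18.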

How the data were processed

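Whole-number counts per gene were deposited by the authors, 1 table per library, without normalization. Per the submitters' processing notes, reads were processed with Trimmomatic, HISAT2 and featureCounts on hg38. Versions, annotation, strand use and the handling of shared reads are not given in the sources used here, so reads of overlapping or near-identical genes may be mixed. Symbols and coordinates came from GENCODE 29 (GRCh38), in which 58394 of 60612 IDs were found.

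Counts were analysed with edgeR 4.0.16 (filterByExpr, minimum count 10, TMM factors 0.956 to 1.05, robust quasi-likelihood, 1 mean per group over all 6 libraries, 3 residual degrees of freedom, no covariates), and the filter kept 15395 of 27870 genes with a count, which hold 99.889% or more of every library. Tests were two-sided with Benjamini-Hochberg adjustment over all genes tested. The steps were tested on simulated data. CPM use scaled library sizes. TPM use exon-union lengths and the sum over protein-coding genes, a choice made after the counts were seen. Floors of 3 counts cover counting error only. Alternatives included DESeq2 1.42.0, limma-voom (limma 3.58.1), other filters and scalings, a GC content and length correction, a replicate block and each library left out. Members called in any comparison were given in full, with CPM in place of counts, and other lists by at most 3 called genes. The members and lists were chosen with earlier results of these data known.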

Additional observations from a re-analysis of the deposited data

How the results depend on the processing

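Over 16 alternatives, 1568 of 1632 fold changes of single members kept their side of the threshold, 37 lost the call and 27 gained one, and 0 of the called ones changed sign. The number of members called lower stayed within 1.5 times its value under every alternative, at 19 to 25 in dnFOS against EV and 22 to 25 in dnFOS against dnCEBP with each library left out, and in dnCEBP it was 0 throughout. The number called higher in dnCEBP was 1 and became 2 with no low-count filter, DESeq2, limma-voom, only the groups compared, the replicate block, the GC content and length trend removed, and both together, and 0 with library totals alone; without single libraries it ran from 0 to 2. The median of the members in dnCEBP against EV (0.03) was 0.0061 with library totals, 0.08 with the GC and length trend removed (0.0835, and 0.0836 with the replicate block), and 0.0154 to 0.0636 without single libraries. In dnFOS against EV (-0.46) it was -0.36 with library totals, -0.41 with the trend removed and -0.41 with the block as well, and -0.51 to -0.43 without single libraries. In dnFOS against dnCEBP (-0.51) it was -0.38 with library totals and -0.55 to -0.48 without single libraries. The cause was not tested. Library totals called 1905 genes higher and 676 lower in dnFOS against EV, where TMM factors called 1115 and 1194. Over all genes in dnCEBP against EV, edgeR called 165, 255 with no low-count filter, 257 with only the groups compared, 488 with the replicate block (337 with the trend removed too), and 33 (without dnCEBP replicate 2) to 314 (without dnFOS replicate 2) with 1 library left out. In dnFOS against EV the 2309 calls fell to 972 without dnFOS replicate 2 and 1059 without EV replicate 1, and in dnFOS against dnCEBP the 2259 calls fell to 1182 without dnFOS replicate 2 and 1349 without dnCEBP replicate 1.

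Over all genes tested, libraries with the same replicate number did not deviate together (correlations of 0.088, 0.017 and 0.028 between groups). These correlations cannot exclude an effect of the replicate number in some genes, so whether the numbers pair libraries is not settled. The replicate block raised the calls over all genes in dnFOS against EV from 2309 to 3172 and left 99 of 102 member results on their side of the threshold. With 2 libraries a group, a fall as small as that of LDHA is at the limit of what this depth and spread can show, and ALDOC, PFKM and EGLN1 rest on few counts.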
